A study of Mus musculus with 22 samples.

Results

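The ligands of the tumour necrosis factor (TNF) superfamily described here are 8 genes: Tnfsf10, Fasl, Tnf, Lta, Ltb, Tnfsf14, Tnfsf8 and Tnfsf11. They were taken by symbol from a count table of 37620 entries, and all 8 were found, each as 1 entry. All 8 passed the filter on low counts in both sets of libraries. The series holds RNA-seq of 11 sorted lymphocyte populations, each with 2 libraries (22 in all). The cells came from mammary tumours, pooled before sorting, of female C57BL/6 PyMT mice of 20 to 24 weeks. PyMT mice carry the polyoma middle T oncogene and develop mammary tumours, and every population came from such tumour-bearing mice, with no untreated or tumour-free group.

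A first set of 5 populations is named in the labels by surface markers: TCRb+CD8a+NK1.1+, TCRb+CD8a-NK1.1+, TCR-NK1.1+, TCRb+CD8a+PD1+ and TCRb+CD8a+PD1-NK1.1- cells. The second set holds 6 populations: ILC1l cells (type 1-like innate lymphoid cells), TCRab+ILTC1 and TCRgd+ILTC1 cells (type 1 innate-like T cells), cNK cells (conventional natural killer cells), TCRb+CD8a+NK1.1- cells and TCRgd+NK1.1- cells. The labels name no set, and the split follows the order of listing and the composition of the populations. The labels do not tie the replicates to separate animals, and with pooled tumours p-values measure only the spread between these libraries, which may be technical.

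TNF superfamily ligands are mostly trimeric proteins that are made at the cell surface and act on receptors of neighbouring cells. TRAIL, encoded by Tnfsf10, and Fas ligand, encoded by Fasl, bind receptors with a death domain and can trigger apoptosis through caspase-8. TNF and the lymphotoxins drive NF-kB signalling and inflammation, and the remaining ligands act mostly as costimulatory or differentiation signals. NK cells and cytotoxic T cells use TRAIL and Fas ligand beside perforin and granzymes to kill target cells.

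Total counts per library ran from 8696335 to 20602715. CPM is the count per 1000000 counts of the library. A limit of 3 counts, an approximate one for a library with 0 counts, came to between 0.146 and 0.345 CPM. The RNA for NK1.1, Klrb1c, was at 888 to 2483 CPM in the 14 libraries of the populations labelled NK1.1+, ILC1l, ILTC1 or cNK and at 0.801 to 87.6 CPM in the other 8. Cd8a was at 1480 CPM or above in all libraries labelled CD8a+, and it was also at 1668 and 2281 CPM in TCRab+ILTC1 cells. Pdcd1, encoding PD1, was at 1887 and 1517 CPM in TCRb+CD8a+PD1+ cells, and at 777 and 609.9 CPM in TCRb+CD8a+NK1.1- cells, which were not sorted on PD1. Some populations carried RNA of other cell types. The 16 myeloid markers listed were Lyz2, Cd68, Csf1r, Adgre1, Itgam, Cd14, Fcgr3, C1qa, C1qb, C1qc, Apoe, Ctss, Mrc1, Cd74, S100a8 and S100a9. The summed level of 16 myeloid markers was 16000 and 43480 CPM in the TCRgd+NK1.1- libraries, with none of the 16 at 0, against 225 to 3667 CPM elsewhere. The sum of 14 epithelial markers without Cdh1 was 6164 and 3419 CPM in TCR-NK1.1+ cells, 3756 and 2068 CPM in TCRgd+NK1.1- cells, 3935 and 315 CPM in TCRb+CD8a-NK1.1+ cells and 1465 and 2778 CPM in TCRb+CD8a+NK1.1- cells, against 21.1 to 118 CPM in the other libraries. Populations without a T-cell receptor in their label also held T-cell RNA: Cd3e stood at 208 and 418 CPM in TCR-NK1.1+ cells and at 88.4 and 477 CPM in ILC1l cells, against 0.622 and 6.13 CPM in cNK cells. In bulk samples of this kind, fewer cells that express a gene and less RNA per cell cannot be told apart.

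Tnfsf10 was highest in ILC1l and both ILTC1 populations, and all 6 of their libraries lay above the other 16. In ILC1l cells Tnfsf10 stood at 440.5 and 414 CPM, in TCRab+ILTC1 cells at 405 and 332 CPM and in TCRgd+ILTC1 cells at 476 and 492 CPM. The lowest libraries of all 22 were the cNK ones, at 55.6 and 44.3 CPM. TCRb+CD8a+NK1.1- cells had 140.3 and 148 CPM and TCRgd+NK1.1- cells 70.4 and 119 CPM. In the first set, TCRb+CD8a+NK1.1+ cells had 207 and 276 CPM, TCRb+CD8a-NK1.1+ cells 155 and 275 CPM, TCR-NK1.1+ cells 174 and 234 CPM, TCRb+CD8a+PD1+ cells 115 and 187 CPM and TCRb+CD8a+PD1-NK1.1- cells 91.4 and 167 CPM. The libraries of the second set ran from 44.3 to 492 CPM and those of the first from 91.4 to 276 CPM, and levels across sets were not tested.

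**Figure D1:**
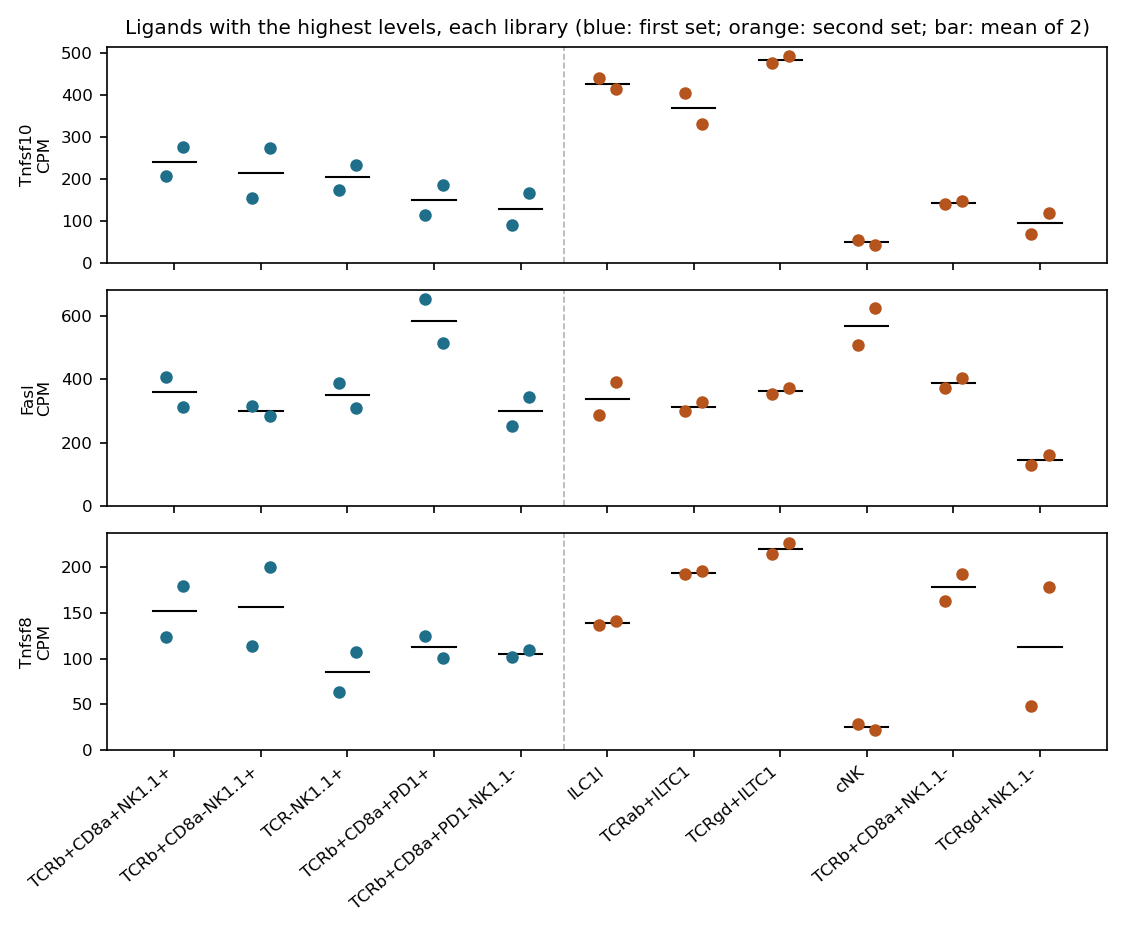
Level of Tnfsf10, Fasl and Tnfsf8 (CPM, linear axes from 0) in each of the 22 libraries. Points are libraries, blue for the first set and orange for the second, and bars are the mean of 2; Tnfsf10 in ILC1l and ILTC1 libraries sits at 332 to 492 CPM and in cNK libraries at 44.3 and 55.6 CPM, while Fasl is highest in TCRb+CD8a+PD1+ and cNK cells.

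The sequence before the annotated start of Tnfsf10 is shown because Tnfsf10 was called between ILC1l and cNK cells, the comparison described next. It lies on chromosome 3, plus strand, at chr3:27316827-27317027 of GRCm38.p6, and covers bases 250 to 50 upstream of the RefSeq start, the longest stretch that holds no annotated exon. Capitals mark the only match among 8 short motifs, the NFAT letters on the other strand, 134 to 129 bases upstream.
Tnfsf10: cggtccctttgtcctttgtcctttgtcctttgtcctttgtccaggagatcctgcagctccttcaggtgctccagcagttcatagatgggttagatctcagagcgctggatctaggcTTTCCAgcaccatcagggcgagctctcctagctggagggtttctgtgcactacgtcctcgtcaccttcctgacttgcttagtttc
The motifs, searched on both strands in the 250 bases upstream, were T-box (GGTGTGA), the NF-kB site, AP-1 (TGANTCA), GAS (TTCNNNGAA), NFAT (TGGAAA), Runx (TGTGGTT), the TATA box letters (TATAAA) and the GC box (GGGCGG). Of 32851 RefSeq promoters, 3.33% held the T-box letters, 0.356% NF-kB, 6.75% AP-1, 7.02% GAS, 18.6% NFAT, 4.40% Runx, 12.4% TATA and 32.7% the GC box. The last letters of the NF-kB motif can overlap an NFAT match on the other strand. A match describes these letters only, and no match says nothing of a factor.

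Differences were tested by the quasi-likelihood method of edgeR. A gene was called at an adjusted p under 0.05, after Benjamini-Hochberg correction over all genes tested. Where libraries are said to lie apart or not to overlap, this is a description only. With 2 libraries per population it carries little weight, and the share of all genes that lie apart was not computed. Against cNK cells, ILC1l cells had 427 ± 19.0 CPM (SD, n = 2) where cNK cells had 49.95 ± 7.93 CPM, a log2 difference of 3.10 ± 0.300 (SE) with an edgeR adjusted p of 0.00149. Tnfsf10 was the 1 ligand of 8 called in that comparison, in which 1.02% of the 16828 genes tested were called. The median log2 difference of the 8 ligands was 2.14, beside 0.03 for all genes tested. T-cell markers moved with this comparison: 4 of 6 were called, all higher in ILC1l cells, and their summed level was 627 and 2477 CPM against 23.1 and 42.1 CPM in cNK cells. Their part in the ligand differences was not tested. The call held in each of the 4 fits that left out 1 library, with adjusted p from 0.00708 to 0.0279, and in all 6 other alternatives.

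TCRgd+ILTC1 cells had 484 ± 10.7 CPM of Tnfsf10 and TCRgd+NK1.1- cells 94.7 ± 34.3 CPM, and the libraries did not overlap. The log2 difference was 2.35 ± 0.291, with an edgeR adjusted p of 0.00968. With Fasl, described next, Tnfsf10 was 1 of 2 ligands called of 8, in a comparison that called 1.59% of all genes, and the ligands' median log2 difference was 0.09 beside −0.13 for all genes tested. The Tnfsf10 call was lost without TCRgd+ILTC1 replicate 1 or replicate 2, with edgeR adjusted p up to 0.0683. The TCRgd+NK1.1- libraries carry the summed myeloid markers given above, against 382 and 400.4 CPM in TCRgd+ILTC1 cells, and the part of those cells in the difference was not tested. The Tnfsf10 difference was 2.80 without TCRgd+NK1.1- replicate 2, the library with the higher myeloid sum, and 2.02 without replicate 1.

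For TCRab+ILTC1 cells (369 ± 52.0 CPM) against TCRb+CD8a+NK1.1- cells (144 ± 5.43 CPM), Tnfsf10 differed by a log2 of 1.35 ± 0.282 without overlap of libraries. The edgeR adjusted p was 0.0718, so the difference was not called. No ligand was called there by edgeR, where 0.523% of all genes were. Of the ligands 2 (Tnfsf10 and Tnf) had an unadjusted p under 0.05, as had 2327 of the 16828 genes tested. DESeq2 called 1 ligand, Tnfsf10, among 1325 genes. Over the alternatives the adjusted p of Tnfsf10 ranged from 0.00071 to 0.341, and the direction held in all 10. The ligands' median log2 difference was −0.09 beside −0.07 for all genes tested. Epithelial markers without Cdh1 summed to 1465 and 2778 CPM in TCRb+CD8a+NK1.1- libraries, against 56.2 and 54.1 CPM in TCRab+ILTC1 libraries. Their part in the ligand differences was not tested.

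Averaged over these 3 differences, which share no library, Tnfsf10 was higher by a log2 of 2.27 ± 0.168, 4.82-fold, with an edgeR adjusted p of 0.000275. Tnfsf10 and Tnfsf8 were the 2 ligands of 8 called, among 5.87% of all genes. Listed cell-type markers moved with this mean. Of 16 myeloid markers 12 were called lower (median log2 −3.93), and of 14 epithelial ones 11 lower and 1 higher (−5.40). Of 6 T-cell markers 4 were called higher (2.11). The part of the cells that carry these markers was not tested. The adjusted p of Tnfsf10 stayed between 0.000114 and 0.0014 in the 12 fits without 1 library. The 3 Tnfsf10 differences themselves ran from 1.35 to 3.10, and none of the tests of one difference against another was called for this gene, in tests that called 0.256%, 1.02% and 0.0535% of all genes: the ILC1l difference exceeded the TCRab+ILTC1 one by 1.74 ± 0.395 (edgeR adjusted p = 0.138) and the TCRgd+ILTC1 one by 0.74 ± 0.393 (edgeR adjusted p = 0.382), and the TCRgd+ILTC1 difference exceeded the TCRab+ILTC1 one by 1.00 ± 0.393 (edgeR adjusted p = 0.49).

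**Figure D2:**
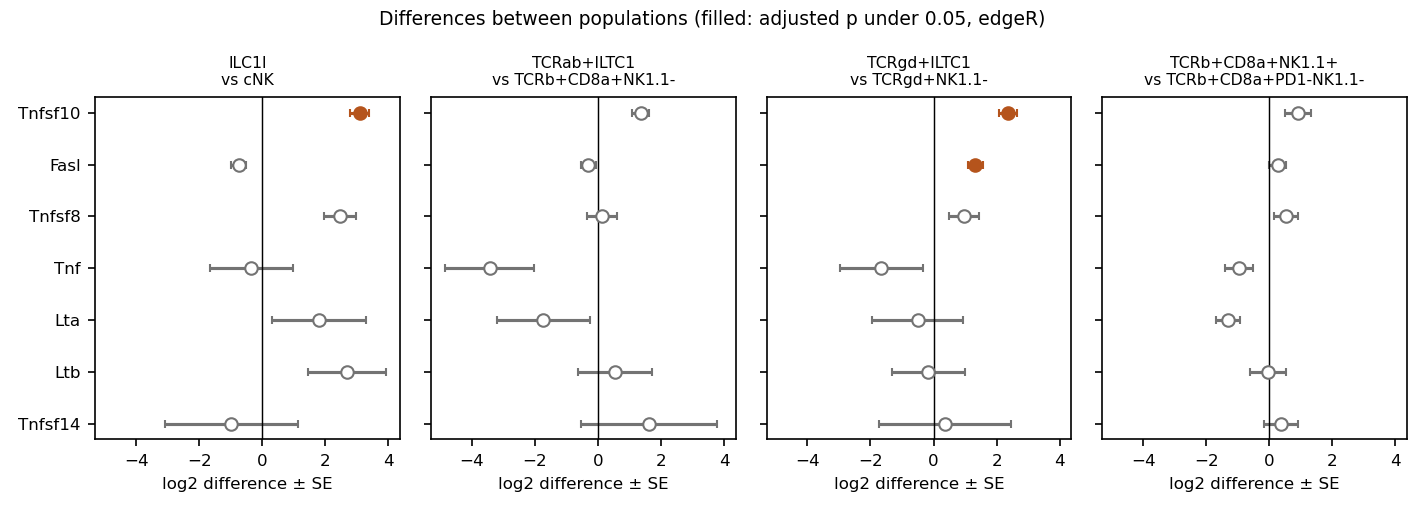
Log2 differences ± SE of 7 ligands in 4 comparisons of populations; Tnfsf11, whose standard errors are much wider, is left out. Filled points have an edgeR adjusted p under 0.05: Tnfsf10 for ILC1l against cNK cells (3.10) and for TCRgd+ILTC1 against TCRgd+NK1.1- cells (2.35), and Fasl in the latter (1.32).

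Tnfsf10 was also compared among the innate-like populations themselves. TCRgd+ILTC1 cells stood above TCRab+ILTC1 cells by 0.39 ± 0.277, and TCRab+ILTC1 cells differed from ILC1l cells by −0.21 ± 0.277, both on the log2 scale. The libraries of each pair did not overlap, and no ligand of 8 was called in either comparison. There edgeR called 0% of the 16828 genes, with 570 genes at an unadjusted p under 0.05 in the first and 1072 in the second, while DESeq2 called 78 and 248 genes but no ligand. None of the 8 ligands had an unadjusted p under 0.05 in either comparison. The ligands' median log2 difference was 0.20 and −0.27, beside 0 and −0.08 for all genes tested.

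In the first set Tnfsf10 did not pass the test across the 5 populations (edgeR adjusted p = 0.532). All 3 NK1.1+ populations had higher means (204 ± 42.8 to 242 ± 49.0 CPM) than the PD1+ (151 ± 50.4 CPM) and PD1-NK1.1- (129 ± 53.3 CPM) populations, with overlap between each population and the next in this order. TCRb+CD8a+NK1.1+ cells exceeded TCRb+CD8a+PD1-NK1.1- cells by a log2 of 0.90 ± 0.405 with an edgeR adjusted p of 0.509, and TCRb+CD8a+PD1+ cells by 0.68 ± 0.404 with 0.641. In both of these comparisons the libraries lay apart, and no alternative called Tnfsf10. Replicate 2 was the higher library in all 5 populations. Across the 6 populations of the second set the same test gave Tnfsf10 an adjusted p of 0.00172. Tnfsf10 and Fasl were the 2 of 8 ligands called there, among 4.76% of all genes, and Tnfsf11 was the 1 of 8 called in the first set, among 6.10%. Under the replicate block, described below, the first-set call of Tnfsf11 was lost. The Tnfsf11 call across the first set (edgeR adjusted p = 0.0436) held in 4 of 10 fits without 1 library and was lost without either library of the TCR-NK1.1+, TCRb+CD8a+NK1.1+ or TCRb+CD8a+PD1+ cells (adjusted p from 0.065 to 0.121) without both TCR-NK1.1+ libraries (0.0519) and in a fit of all libraries (0.107).

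Fasl followed another order. In the second set cNK cells were highest at 508 and 627 CPM, and TCRgd+NK1.1- cells lowest at 130.3 and 161 CPM. Between them lay TCRb+CD8a+NK1.1- cells at 373 and 406 CPM, TCRgd+ILTC1 cells at 353 and 374 CPM, ILC1l cells at 288 and 391 CPM and TCRab+ILTC1 cells at 299.9 and 329 CPM. These 4 populations overlapped with their neighbours, while the highest and the lowest population stood apart from them. TCRb+CD8a+PD1+ cells were the highest of the first set at 655 and 513 CPM, apart from the other 4 populations. TCRb+CD8a+NK1.1+ cells had 408 and 314 CPM, TCR-NK1.1+ cells 389 and 311 CPM, TCRb+CD8a-NK1.1+ cells 315 and 286 CPM and TCRb+CD8a+PD1-NK1.1- cells 254 and 345 CPM, with overlap between neighbours. The lowest library had 1213 counts of Fasl and the highest 10215.

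The 250 bases upstream of the RefSeq start of Fasl, on the minus strand at chr1:161788496-161788745 of GRCm38.p6, are shown beside the Tnfsf10 stretch because these genes encode both death ligands and differ in order across populations. Capitals mark the GC box letters 34 to 29 bases upstream, the only match among the motifs listed.
Fasl: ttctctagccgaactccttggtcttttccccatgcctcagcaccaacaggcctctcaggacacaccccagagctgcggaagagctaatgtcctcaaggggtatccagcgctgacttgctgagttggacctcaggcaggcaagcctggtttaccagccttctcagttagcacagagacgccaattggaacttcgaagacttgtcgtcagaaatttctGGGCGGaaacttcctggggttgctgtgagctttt

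Across the 6 populations of the second set Fasl passed the test with an edgeR adjusted p of 0.0201. TCRgd+ILTC1 cells had 364 ± 15.0 CPM (SD, n = 2) and TCRgd+NK1.1- cells 145.5 ± 21.6 CPM, a log2 difference of 1.32 ± 0.243 with an edgeR adjusted p of 0.0334. That call was lost with DESeq2 size factors (adjusted p = 0.0502) and without TCRgd+ILTC1 replicate 1 or replicate 2, the range over all alternatives being 9.51e-05 to 0.248. Across the second set Fasl was no longer called with both TCRgd+NK1.1- libraries left out (0.15), nor without either cNK library or TCRgd+ILTC1 replicate 1 (edgeR adjusted p from 0.0523 to 0.0986). The TCRgd+NK1.1- libraries carry the summed myeloid and epithelial markers given above. The part of such RNA in the Fasl difference from TCRgd+ILTC1 cells was not tested. In ILC1l cells Fasl had 339.5 ± 72.7 CPM where cNK cells had 567 ± 83.9 CPM. The log2 difference was −0.74 ± 0.240 and was not called by edgeR (adjusted p = 0.264), while DESeq2 gave −0.75 with an adjusted p of 0.04905. For TCRab+ILTC1 against TCRb+CD8a+NK1.1- cells the difference was −0.31 ± 0.239 (edgeR adjusted p = 0.594).

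Fasl also stood higher in TCRb+CD8a+PD1+ cells (584 ± 99.95 CPM) than in TCRb+CD8a+PD1-NK1.1- cells (299.3 ± 64.3 CPM), with no overlap. The log2 difference of 0.96 ± 0.275 had an edgeR adjusted p of 0.3. No ligand of 8 was called in this comparison by edgeR, where 0.451% of all genes were. Fasl and Tnfsf14 had an unadjusted p under 0.05, as had 1065 of the 15727 genes tested. DESeq2 called 1 ligand, Fasl, among 388 genes. The ligands' median log2 difference was 0.30 beside 0 for all genes tested. TCRb+CD8a+NK1.1+ cells were lower than TCRb+CD8a+PD1+ cells by −0.69 ± 0.274 (edgeR adjusted p = 0.36).

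Levels of different genes can be compared only per length, and here each CPM was divided by the gene's exonic length in kilobases. On that scale Fasl exceeded Tnfsf10 in all 22 libraries, by a factor that differed between populations. The ratio of Fasl to Tnfsf10 per kilobase was 24.9 and 38.4 in cNK libraries. It was 1.78 and 2.57 in ILC1l, 2.01 and 2.70 in TCRab+ILTC1 and 2.02 and 2.07 in TCRgd+ILTC1 libraries, below every library of the first set, where the lowest ratio was 2.83. The TCRb+CD8a+PD1+ libraries had 15.4, the highest ratio of the first set, and 7.48. In the second set TCRgd+NK1.1- libraries had 5.03 and 3.68, and TCRb+CD8a+NK1.1- libraries 7.23 and 7.455. As a share of the summed per-kilobase level of the 8 ligands, Fasl made up 85.2 and 90.5% in cNK libraries and 41.9 to 58.4% in ILC1l and ILTC1 libraries, and Tnfsf10 made up 3.43 and 2.36% against 21.6 to 23.7%. The Fasl share was lowest in TCRgd+NK1.1- replicate 1, at 33.1%, while replicate 2, at 42.5%, lay within the ILC1l and ILTC1 range. It ran from 51.0 to 72.7% in the first set, so a share in the ILC1l and ILTC1 range was not particular to those cells. Because Tnfsf10 and Fasl share a library, the ratio does not depend on the scaling between libraries. The exonic lengths hold all annotated exons of each gene, and which transcripts these cells use was not measured.

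**Figure D3:**
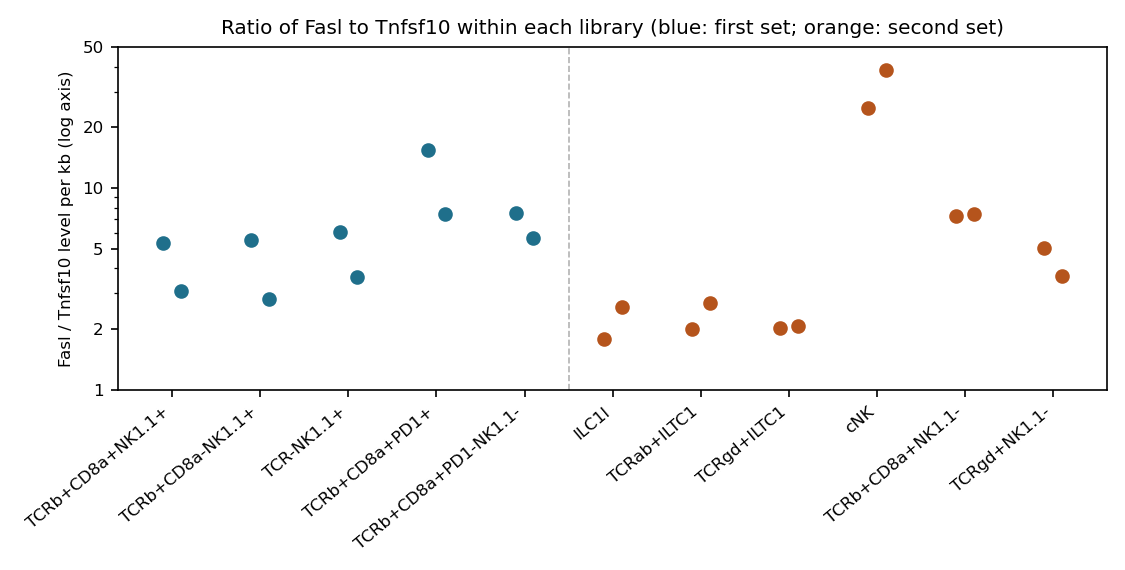
Ratio of Fasl to Tnfsf10 level per kilobase of exon (log axis) in each of the 22 libraries, blue for the first set and orange for the second. The cNK libraries sit at 24.9 and 38.4 and the ILC1l and ILTC1 libraries between 1.78 and 2.70.

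Tnfsf8, the ligand of CD30, had a median of 131 CPM over the 22 libraries. In cNK cells it stood at 28.0 and 21.95 CPM, below every other library, of which the lowest had 47.5 CPM. ILC1l cells had 137 and 141 CPM, TCRab+ILTC1 cells 193 and 195 CPM and TCRgd+ILTC1 cells 214 and 227 CPM. TCRb+CD8a+NK1.1- cells had 163 and 193 CPM, while the replicates of TCRgd+NK1.1- cells were far apart at 47.5 and 179 CPM. The first set had a median of 111 CPM, with the lowest library, TCR-NK1.1+ replicate 1, at 63.3 CPM (868 counts) and the highest, TCRb+CD8a-NK1.1+ replicate 2, at 2885 counts. The edgeR adjusted p across that set was 0.457. No match to the motifs listed was found in its 250 upstream bases.

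ILC1l cells (139 ± 3.19 CPM) exceeded cNK cells (24.98 ± 4.29 CPM) in Tnfsf8 by a log2 of 2.48 ± 0.505, 5.56-fold, with an edgeR adjusted p of 0.0584 that missed the threshold. The T-cell markers higher in ILC1l cells, given above, move with this difference too, and their part was not tested. It passed with DESeq2 (adjusted p = 0.000169), without the filter on low counts, in a fit of all libraries and without the TCRgd+NK1.1- libraries, and missed in all 4 fits without 1 library, the adjusted p ranging from 2.51e-07 to 0.405. TCRgd+ILTC1 cells exceeded TCRgd+NK1.1- cells by 0.96 ± 0.480 (edgeR adjusted p = 0.341), and by 2.24, with an edgeR adjusted p of 0.0118, without the higher of the TCRgd+NK1.1- libraries, replicate 2. For TCRab+ILTC1 against TCRb+CD8a+NK1.1- cells the difference was 0.13 ± 0.476 (edgeR adjusted p = 0.96). The mean of the 3 differences in Tnfsf8 was 1.19 ± 0.279 on the log2 scale with an edgeR adjusted p of 0.0359. That call held in 3 of the 12 fits without 1 library, those without TCRab+ILTC1 replicate 1 and without either TCRgd+NK1.1- library, over an adjusted p from 0.000576 to 0.124.

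Tnf, Lta and Ltb encode TNF and the 2 chains of lymphotoxin and lie next to each other on chromosome 17. Per kilobase of exon all 3 had lower mean levels than Fasl in every population. Tnf was highest in TCRb+CD8a+NK1.1- cells at 16.4 and 38.9 CPM and in TCRgd+NK1.1- cells at 20.3 and 33.8 CPM. In the other populations of the second set it stood at 5.20 and 1.17 CPM in ILC1l, 4.36 and 12.8 CPM in TCRgd+ILTC1, 4.12 and 4.00 CPM in cNK and 4.98 and 0.0772 CPM in TCRab+ILTC1 cells. First-set levels of Tnf ran from 6.36 and 6.92 CPM in TCRb+CD8a+NK1.1+ cells to 11.5 and 14.3 CPM in TCRb+CD8a+PD1-NK1.1- cells. Macrophages also make Tnf, and the TCRgd+NK1.1- libraries are those with the high myeloid sum, whose part in this level was not tested.

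Tnf was not called by edgeR as fitted in any comparison. Across the second set it was called by DESeq2 (adjusted p = 0.0421), without the filter on low counts (0.00283) and without TCRab+ILTC1 replicate 1 (0.0325), and the last 2 of these fits also called it in the mean of the 3 differences (0.0258 and 0.0123). For TCRab+ILTC1 against TCRb+CD8a+NK1.1- cells the log2 difference was −3.43 ± 1.42 with an edgeR adjusted p of 0.327. It was −8.37 without TCRab+ILTC1 replicate 1 (adjusted p = 0.0263) and −2.47 without replicate 2 (0.693), and the fit without the filter called it (0.0332). For TCRgd+ILTC1 against TCRgd+NK1.1- cells Tnf differed by −1.66 ± 1.32 (edgeR adjusted p = 0.556). TCRb+CD8a+NK1.1+ cells were lower than TCRb+CD8a+PD1-NK1.1- cells by a log2 of −0.96 ± 0.448 (edgeR adjusted p = 0.545), with libraries apart. TCRab+ILTC1 replicate 2 held 1 count of Tnf, 0 of Lta and 0 of Tnfsf14 where replicate 1 held 99, 343 and 343. Other replicates also split, with 66 and 14 counts of Tnf in ILC1l and 124 and 0 of Tnfsf14 in TCRgd+NK1.1- cells. TCRab+ILTC1 replicate 2 had a total count of 13226976 and the fewest genes with a count, 12866. By counting error alone, the approximate limit of 3 counts for a count of 0 there came to 0.227 CPM of the unscaled total. That limit does not cover the split between replicates.

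Lta had its highest first-set values in the populations without NK1.1. TCRb+CD8a+PD1+ cells had 42.7 and 46.1 CPM and TCRb+CD8a+PD1-NK1.1- cells 26.1 and 41.9 CPM, above all libraries of the 3 NK1.1+ populations. TCR-NK1.1+ cells had 20.6 and 21.4 CPM, TCRb+CD8a-NK1.1+ cells 20.9 and 16.5 CPM and TCRb+CD8a+NK1.1+ cells 17.7 and 9.87 CPM. The difference of TCRb+CD8a+NK1.1+ from TCRb+CD8a+PD1+ cells was a log2 of −1.69 ± 0.397, 3.22-fold, with an edgeR adjusted p of 0.071 that missed the threshold, while DESeq2 gave 0.00184, within a range over alternatives of 0.00184 to 0.914. From TCRb+CD8a+PD1-NK1.1- cells the difference was −1.31 ± 0.394 (edgeR adjusted p = 0.192). In the second set Lta was lowest in cNK cells at 6.69 and 4.62 CPM, apart from the library at 0, and highest in TCRb+CD8a+NK1.1- cells at 32.2 and 25.5 CPM. ILC1l cells had 16.5 and 23.1 CPM, TCRgd+ILTC1 cells 15.8 and 17.0 CPM, TCRab+ILTC1 cells 17.3 and 0 CPM and TCRgd+NK1.1- cells 33.0 and 13.5 CPM.

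Replicates of Ltb lay far apart in 4 populations of the second set. TCRgd+NK1.1- cells had 94.1 and 9.93 CPM, TCRab+ILTC1 cells 72.8 and 8.80 CPM, TCRb+CD8a+NK1.1- cells 47.6 and 8.25 CPM and ILC1l cells 97.6 and 34.6 CPM. TCRgd+ILTC1 cells (48.0 and 44.7 CPM) and cNK cells (12.2 and 8.26 CPM) had closer replicates. The difference of ILC1l from cNK cells was a log2 of 2.69 ± 1.24 with an edgeR adjusted p of 0.4995. In the first set TCRb+CD8a+PD1+ cells had 43.3 and 77.6 CPM, TCRb+CD8a+NK1.1+ cells 57.9 and 29.1 CPM, TCRb+CD8a+PD1-NK1.1- cells 49.6 and 39.5 CPM, TCRb+CD8a-NK1.1+ cells 31.2 and 20.7 CPM and TCR-NK1.1+ cells 6.64 and 22.7 CPM. TCRb+CD8a+NK1.1+ cells exceeded TCR-NK1.1+ cells by 1.57 ± 0.583 on the log2 scale (edgeR adjusted p = 0.242).

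Tnfsf14 encodes LIGHT, a ligand of the lymphotoxin beta receptor and of HVEM. It was highest in cNK cells at 22.8 and 15.8 CPM and lowest in TCRb+CD8a+PD1+ cells (3.91 and 2.94 CPM) and TCRb+CD8a+NK1.1- cells (3.83 and 1.76 CPM), leaving aside 2 libraries at 0. Those were TCRab+ILTC1 replicate 2, beside 17.3 CPM in replicate 1, and TCRgd+NK1.1- replicate 2, beside 13.3 CPM in replicate 1. ILC1l cells had 9.14 and 10.4 CPM and TCRgd+ILTC1 cells 11.2 and 5.71 CPM, and the other first-set libraries ran from 6.75 to 12.4 CPM. TCRb+CD8a+NK1.1+ cells exceeded TCRb+CD8a+PD1+ cells by a log2 of 1.71 ± 0.556 (edgeR adjusted p = 0.227). DESeq2 called that difference (adjusted p = 0.0370) and edgeR did not in any alternative.

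**Figure D4:**
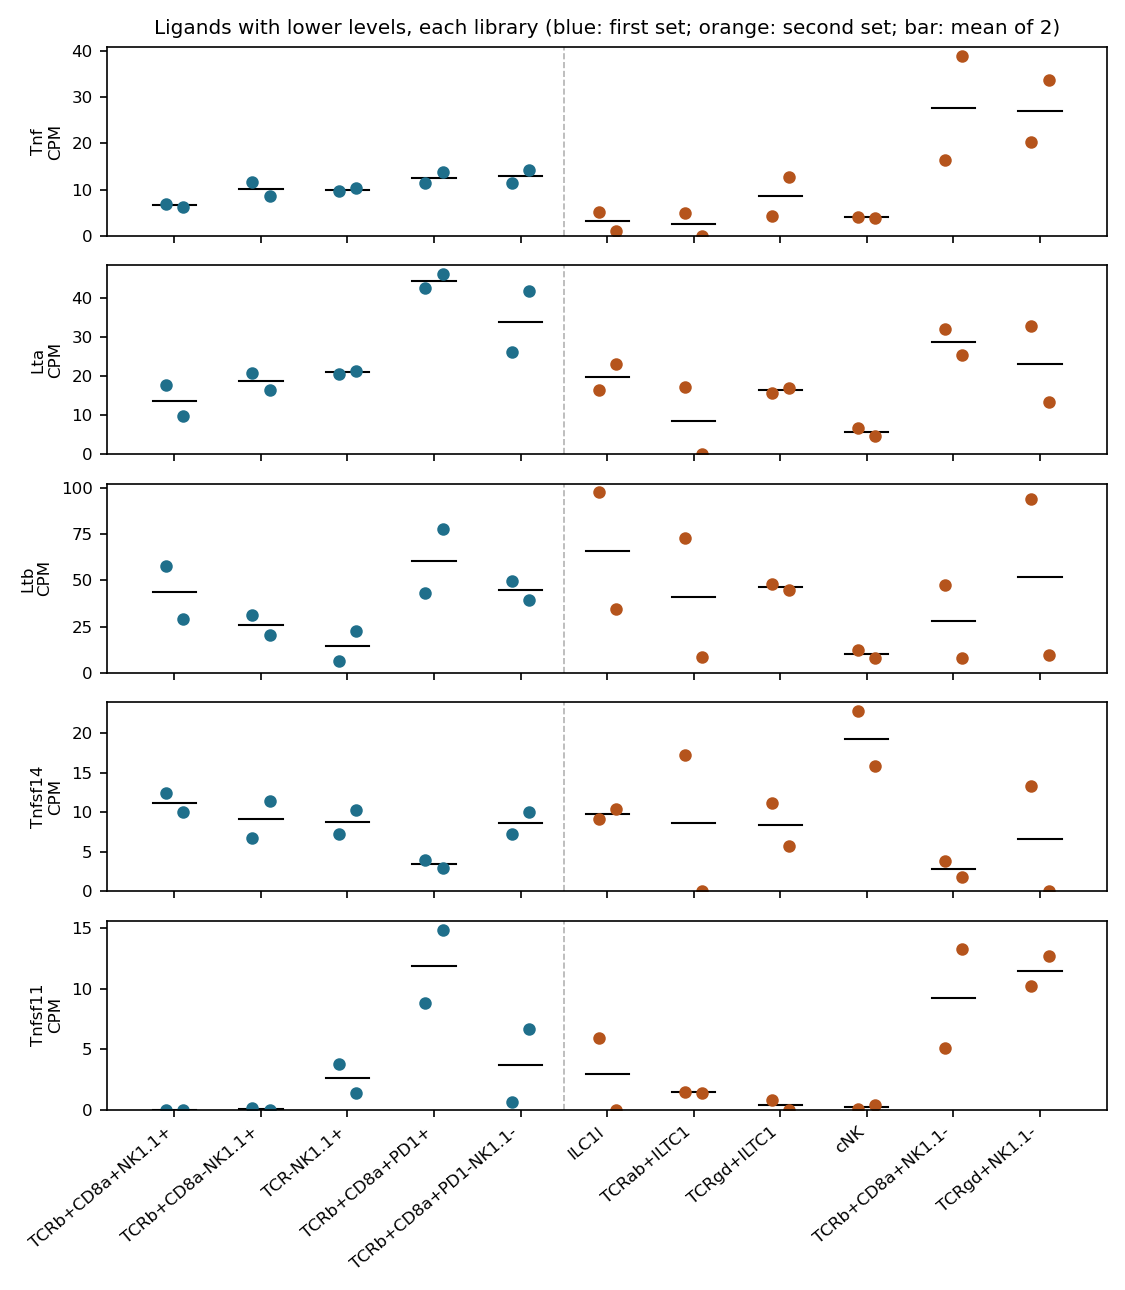
Level of Tnf, Lta, Ltb, Tnfsf14 and Tnfsf11 (CPM, linear axes from 0) in each of the 22 libraries, blue for the first set and orange for the second, with bars at the mean of 2. Lta lies at 26.1 CPM or above in the PD1+ and PD1-NK1.1- CD8a+ libraries, and Tnfsf11 is at 0 in both TCRb+CD8a+NK1.1+ libraries.

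Tnfsf11 encodes RANKL, the ligand of RANK, and had the lowest median of the 8 over the 22 libraries, 0.626 CPM per kilobase of exon. Both libraries of TCRb+CD8a+NK1.1+ cells held 0 counts, and the TCRb+CD8a-NK1.1+ libraries held 2 and 0 counts. TCRb+CD8a+PD1+ cells had 8.85 and 14.9 CPM (138 and 167 counts), TCRb+CD8a+PD1-NK1.1- cells 0.626 and 6.69 CPM and TCR-NK1.1+ cells 3.79 and 1.41 CPM. In the second set the NK1.1- populations were highest, with 5.13 and 13.3 CPM in TCRb+CD8a+NK1.1- cells and 10.2 and 12.7 CPM in TCRgd+NK1.1- cells. ILC1l cells had 5.91 and 0 CPM, TCRab+ILTC1 cells 1.46 and 1.39 CPM, TCRgd+ILTC1 cells 0.827 and 0 CPM and cNK cells 0.0778 and 0.355 CPM. Of the 22 libraries, 5 were at 0 and 7 held 3 counts or fewer.

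The 250 bases upstream of the RefSeq start of Tnfsf11, on the minus strand at chr14:78308044-78308293 of GRCm38.p6, are shown because this gene was at 0 in 1 population and called against another. Capitals mark the TATA letters on the other strand, 32 to 27 bases upstream, the only match among the motifs listed.
Tnfsf11: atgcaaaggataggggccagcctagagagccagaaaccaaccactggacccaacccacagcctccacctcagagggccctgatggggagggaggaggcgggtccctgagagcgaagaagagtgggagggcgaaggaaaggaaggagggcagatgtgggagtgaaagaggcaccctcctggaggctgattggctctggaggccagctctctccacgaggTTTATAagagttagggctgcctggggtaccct

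Tnfsf11 was lower in TCRb+CD8a+NK1.1+ than in TCRb+CD8a+PD1+ cells with an edgeR adjusted p of 0.0459. Computed with 3 counts over the 2 libraries, or 0.125 CPM, the level was at least 94.7-fold below the TCRb+CD8a+PD1+ mean of 11.9 CPM. This bound covers counting error at 0 alone, and not the spread of the TCRb+CD8a+PD1+ libraries (8.85 and 14.9 CPM). Tnfsf11 was the 1 ligand of 8 called in this comparison, in which 2.11% of the 15727 genes tested were called, and the ligands' median log2 difference was −0.58 beside −0.00235 for all genes tested. The call was lost in each of the 4 fits without 1 of the compared libraries (adjusted p from 0.0909 to 0.269), in a fit of all libraries (0.13) and without the TCR-NK1.1+ libraries (0.0565). The replicate block, described below, lost the call too. Against TCRb+CD8a+PD1-NK1.1- cells (0.626 and 6.69 CPM) and TCR-NK1.1+ cells (3.79 and 1.41 CPM) Tnfsf11 was not called (edgeR adjusted p = 0.102 and 0.11). These comparisons share the TCRb+CD8a+NK1.1+ libraries.

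No ligand of 8 was called by edgeR in the remaining comparisons of the first set. Against TCRb+CD8a+PD1-NK1.1- cells, TCRb+CD8a+NK1.1+ cells differed in 1.78% of all genes. There Tnfsf10, Lta and Tnfsf11 had an unadjusted p under 0.05, as had 1543 of the 15727 genes tested. DESeq2 called 2 ligands, Lta and Tnfsf11, among 795 genes. Against TCR-NK1.1+ cells, with 1.54% of genes called, Ltb, Tnfsf8 and Tnfsf11 had an unadjusted p under 0.05, as had 2423 genes. DESeq2 called 1 ligand there, Tnfsf11, among 1136 genes. Against TCRb+CD8a-NK1.1+ cells, with 0.337% of genes called, no ligand had an unadjusted p under 0.05, while 1469 genes had. There DESeq2 called 0 ligands and 614 genes. The ligands' median log2 differences in these comparisons were 0.12, 0.14 and 0.06, beside 0, −0.05 and −0.05 for all genes tested.

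Likeness among the 8 ligands was described by correlation. Over 22 libraries, with log2(CPM + 1) centred on the set mean, Tnfsf10 and Tnfsf8 had a Pearson r of 0.787 and a Spearman rho of 0.691, and Tnf and Lta an r of 0.669 and a rho of 0.635. Tnfsf10 and Fasl had an r of −0.0631 and a rho of −0.0672. The points share libraries, populations and depth, and these values are descriptions.

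Among 8515 genes that reached 20 CPM in some population (8516 for Tnfsf14 and Tnfsf11), those most like Tnfsf10 were Sema6d, a semaphorin (r = 0.926, rho = 0.883), Smyd3, a lysine methyltransferase (r = 0.923, rho = 0.904), and Itga1, the integrin chain CD49a (r = 0.908, rho = 0.897). Most like Tnfsf8 were Inpp4b, a phosphoinositide phosphatase (r = 0.949, rho = 0.839), Nt5e, encoding CD73 (r = 0.916, rho = 0.845), and Apol7e (r = 0.905, rho = 0.85). For Fasl they were Rnf157 (r = 0.855, rho = 0.631), Sh2d2a, a T-cell adaptor (r = 0.829, rho = 0.827), and Samd3 (r = 0.812, rho = 0.545). For Tnfsf11 they were Tspan3 (r = 0.86, rho = 0.893), Gpr183, an oxysterol receptor (r = 0.838, rho = 0.783), and Rora, a nuclear receptor (r = 0.819, rho = 0.842). The genes most like Lta were Hnrnpll, Slfn5 and Xaf1 (r from 0.847 to 0.877), and those most like Tnf were Cluap1, Mical2 and Kcnn4 (r from 0.849 to 0.863). Ltb had the weakest likeness, with Pigx, Ebpl and Dut (r from 0.742 to 0.774), and Tnfsf14 had Rheb, Srp19 and Castor1 (r from 0.837 to 0.885).

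Of 10 other ligands of the superfamily that were listed, 9 were in the table, and 6 were tested in the first set and 7 in the second. Tnfsf4, encoding OX40L, was the 1 of 6 called between TCRb+CD8a+NK1.1+ and TCRb+CD8a+PD1+ cells, at 0.0834 and 0.92 CPM against 61.5 and 46.8 CPM, a log2 of −6.73 ± 0.996 with an edgeR adjusted p of 0.00704. It was again the 1 called against TCR-NK1.1+ cells, which had 12.8 and 21.7 CPM (log2 −5.08 ± 0.942, edgeR adjusted p = 0.031). These comparisons called 2.11% and 1.54% of all genes. In the mean of the 3 differences of the second set 1 of 7 was called, Tnfsf13, which was lower (edgeR adjusted p = 0.0292). That test called 5.87% of all genes. No fold is given for Tnfsf13, because it was at 0 in every ILC1l and ILTC1 library. Tnfsf13 stood at 3.54 and 7.78 CPM in the TCRgd+NK1.1- libraries, which carry the high myeloid sum. It stood at 0.233 and 0.533 CPM in cNK and at 0.273 and 4.64 CPM in TCRb+CD8a+NK1.1- libraries. The part of myeloid cells was not tested. In the other comparisons of pairs edgeR called none of these ligands.

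All 12 listed receptors of the 8 ligands and their partners were tested in both sets. Btla, an inhibitory receptor of HVEM, was lower in TCRb+CD8a+NK1.1+ cells (0.5003 and 1.67 CPM) than in TCRb+CD8a+PD1+ cells (31.9 and 20.8 CPM) and TCRb+CD8a+PD1-NK1.1- cells (67.5 and 61.3 CPM). The log2 differences were −4.59 ± 0.659 and −5.88 ± 0.691, with edgeR adjusted p of 0.00621 and 0.00373, and no other receptor was called in a comparison of pairs. The comparisons with Btla called 2.11% and 1.78% of all genes. Receptors of the ligands described were also measured in these cells. Tnfrsf10b, the TRAIL receptor of the mouse, stood at 18.8 CPM or lower in every library, and Tnfrsf8, encoding CD30, at 5.56 CPM or lower. Fas ranged from 4.51 to 37.7 CPM, the highest libraries being those of TCRb+CD8a+PD1+ and TCRb+CD8a+PD1-NK1.1- cells. Tnfrsf11a, encoding RANK, was at or below 5.75 CPM except for 17.4 CPM in TCRgd+NK1.1- replicate 2.

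A list of signalling genes downstream of the receptors was also tested. Tnfaip3, encoding the NF-kB inhibitor A20, was lower in ILC1l (113 and 129.7 CPM) than in cNK cells (352 and 348 CPM), by −1.53 ± 0.284 with an edgeR adjusted p of 0.0383, and was lower in the mean of the 3 differences (−1.05 ± 0.162, edgeR adjusted p = 0.00636). Tnfaip3 was the 1 gene of 23 called in each of these comparisons, which called 1.02% and 5.87% of all genes. The median log2 difference of the list was −0.30 for ILC1l against cNK cells, beside 0.03 for all genes tested, 0.16 for TCRgd+ILTC1 against TCRgd+NK1.1- cells, beside −0.13, and −0.00188 for the mean of the 3 differences, beside −0.08.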

How the data were processed

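Per the labels' protocols, lymphocytes from digested, pooled mammary tumours were enriched on Percoll, sorted by flow cytometry into Tri-Reagent, and cDNA was amplified with a SMARTer kit. The deposited values are whole-number counts, 1 column for each of 22 libraries. The authors made them with BWA 0.7.5a, Picard and HTSeq, per the submitters' processing notes, which name the builds mm9 and NCBIM37. Counting settings, strand and each build's role were not given in the sources used here. ILC1I in 1 title and ILC1l in another were read as the same population.

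Of 37620 entries, 32897 (99.02% of counts) were matched by gene ID to symbols in a supplied name table. Genes passing filterByExpr were scaled by TMM and tested by edgeR 4.0.16 in R 4.3.3 (quasi-likelihood, Benjamini-Hochberg adjustment) with 1 mean per population, separately for the first set (10 libraries, 15727 genes tested) and the second (12 libraries, 16828). CPM are TMM-scaled, and exonic lengths are those of GENCODE M21. DESeq2 1.42.0 was an alternative. The test was checked on simulated data with planted changes. For ILC1l against cNK cells it recovered 0, 20, 44 and 62% of log2 changes of 1, 2, 3 and 4. For TCRgd+ILTC1 against TCRgd+NK1.1- cells these were 2, 14, 56 and 66%. For TCRb+CD8a+NK1.1+ against TCRb+CD8a+PD1+ cells they were 2, 42, 80 and 94%. A difference that was not called is therefore not shown to be absent. A fold against a population at 0 uses 3 counts over its libraries, and covers counting error alone, as the labels describe no molecular identifiers. Tables and figures used Python 3.11.15, pandas 2.3.3 and matplotlib 3.10.9.

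The ligands, the lists of other ligands, receptors, signalling genes and cell markers, and the tests were chosen with earlier results of these data known. Named genes are the 8 ligands, up to 2 called genes each way per list with at least 10 CPM, the 3 genes most like each ligand (predicted genes left out, at least 20 CPM in some population) and the sort markers. Tnfsf13, the sum without Cdh1 and some receptors were named after their values were seen. Tnfsf12, Trdc, Trgc1 and Trgc2 are not analysed here. A result on the signalling list is not reported here. Upstream sequences come from RefSeq on GRCm38.p6, not the authors' builds, and all 8 ligands matched. Alternatives changed the scaling, tool, filter, libraries in the fit and replicate block, or left out 1 library or, chosen after seeing the data, both TCR-NK1.1+ or both TCRgd+NK1.1- libraries.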

Additional observations from a re-analysis of the deposited data

Results flagged for a closer look

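For Fasl, 1 of 3 tests of one difference between populations against another was called. ILC1l cells had 339.5 CPM against 567 CPM in cNK cells, a log2 difference of −0.74, while TCRgd+ILTC1 cells had 364 CPM against 145.5 CPM in TCRgd+NK1.1- cells, a log2 difference of 1.32. The test of the difference between them gave −2.06 ± 0.341 (SE) with an edgeR adjusted p of 0.0302, in a test that called 1.02% of all genes. The ILC1l difference minus the TCRab+ILTC1 one was −0.43 (edgeR adjusted p = 0.854) and the TCRgd+ILTC1 difference minus the TCRab+ILTC1 one 1.63 (0.208), neither called. For the called test the sign held in all 13 alternatives, with values from −2.25 to −1.79, and the call in 7 of them. It was lost in 6 of the 8 fits without 1 library, all but those without a TCRgd+NK1.1- library. The myeloid marker sum of the TCRgd+NK1.1- libraries moves with this contrast, and its part was not tested.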

How the results depend on the processing

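No ligand difference reported with an edgeR adjusted p under 0.1 changed sign under an alternative. The Fasl mean of the 3 differences, 0.09 (edgeR adjusted p = 0.847), was −0.56 (0.074) without both TCRgd+NK1.1- libraries, where it is the mean of the 2 other differences only (−0.74 and −0.31 as reported), so its sign follows from leaving out the 1 positive difference. Counts of ligands called depended on the tool and filter. Across the first set, DESeq2 and the fit without a filter each called 3 ligands where 1 was reported, and the fit of all libraries, the replicate block and the fit without both TCR-NK1.1+ libraries each called 0. For TCRb+CD8a+NK1.1+ against TCRb+CD8a+PD1+ cells (1 reported) DESeq2 called 3, no filter 2, and the fit of all libraries, the replicate block and the fit without TCR-NK1.1+ libraries 0. Against TCRb+CD8a+PD1-NK1.1- cells (0 reported) DESeq2 called 2 and no filter 1, and against TCR-NK1.1+ cells (0) DESeq2 called 1 and no filter 2. For TCRb+CD8a+PD1+ against TCRb+CD8a+PD1-NK1.1- cells (0) DESeq2 called 1. Across the second set (2 reported) DESeq2 called 4 and no filter 6. For ILC1l against cNK cells (1) DESeq2 and no filter called 3 each, and the fit of all libraries and the fit without both TCRgd+NK1.1- libraries 2 each. For TCRab+ILTC1 against TCRb+CD8a+NK1.1- cells (0) DESeq2 called 1, no filter 2 and the fit without TCRgd+NK1.1- libraries 1. For TCRgd+ILTC1 against TCRgd+NK1.1- cells (2) DESeq2 size factors left 1, and for the mean of the 3 differences (2) no filter gave 4. The causes were not tested.

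Leaving out 1 library in turn, where a lone library is assumed to vary like the other populations, the ligands called ranged from 0 to 1 across the first set, 1 to 5 across the second, 0 to 0 for TCRb+CD8a+NK1.1+ against TCRb+CD8a+PD1+ cells, 0 to 2 for TCRab+ILTC1 against TCRb+CD8a+NK1.1- cells, 0 to 3 for TCRgd+ILTC1 against TCRgd+NK1.1- cells, 0 to 1 for TCRgd+ILTC1 against TCRab+ILTC1 and for TCRab+ILTC1 against ILC1l cells, and 1 to 4 for the mean of the 3 differences. In the second set the highest of these counts came without TCRab+ILTC1 replicate 1, which leaves the library at or near 0 for Tnf and Lta, except for TCRgd+ILTC1 against TCRgd+NK1.1- cells, where it came without TCRgd+NK1.1- replicate 2. Counts of all genes called moved by over 1.5 times too. With DESeq2, without the filter and without 1 library, the 959 genes across the first set became 2587, 3099 and 615 to 2289, and the 801 across the second 3187, 3675 and 431 to 1639. For TCRb+CD8a+NK1.1+ cells, 332 against TCRb+CD8a+PD1+ became 875, 838 and 116 to 170, 280 against TCRb+CD8a+PD1-NK1.1- became 795, 747 and 46 to 105, 242 against TCR-NK1.1+ became 1136, 1452 and 3 to 137, and 53 against TCRb+CD8a-NK1.1+ became 614, 906 and 2 to 667. In the same order, 71 for TCRb+CD8a+PD1+ against TCRb+CD8a+PD1-NK1.1- became 388, 397 and 14 to 30, 171 for ILC1l against cNK 925, 787 and 34 to 79, 88 for TCRab+ILTC1 against TCRb+CD8a+NK1.1- 1325, 1244 and 11 to 840, 268 for TCRgd+ILTC1 against TCRgd+NK1.1- 1878, 1786 and 7 to 804, 0 for TCRgd+ILTC1 against TCRab+ILTC1 78, 154 and 0 to 297, 0 for TCRab+ILTC1 against ILC1l 248, 344 and 0 to 324, and 987 for the mean of the 3 differences 2399, 2233 and 448 to 1836. Replicate numbers were not taken to pair libraries. Deviations of same-numbered libraries correlated above 0.1 in 8 of 10 population pairs of the first set and in 1 of 15 of the second. All first-set correlations were positive, from 0.0545 to 0.227, and those of the second set ran from −0.0406 to 0.123. A shared replicate effect in the first set is thus not excluded. Under the replicate block Tnfsf11 had an edgeR adjusted p of 0.0537 between TCRb+CD8a+NK1.1+ and TCRb+CD8a+PD1+ cells and 0.0566 across the first set, and no other call of a ligand changed in the comparisons of populations.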

Other observations

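In the first set replicate 2 was the higher library for Tnfsf10 in all 5 populations, from 155 to 275 CPM in TCRb+CD8a-NK1.1+ cells and from 174 to 234 CPM in TCR-NK1.1+ cells. Fasl was lower in replicate 2 in 4 of the 5, all but TCRb+CD8a+PD1-NK1.1- cells. In TCRab+ILTC1 replicate 1 Lta and Tnfsf14 had the same count of 343, and in replicate 2 both had 0.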
